A study of Homo sapiens with 27 samples.

Results

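The 10 genes described here encode proteins of the MHC class II antigen presentation pathway and its regulators: CIITA, RFX5, CD74, HLA-DRA, HLA-DRB1, HLA-DPA1, HLA-DPB1, HLA-DQB1, HLA-DMA and HLA-DMB. They were taken by name from the 60619 genes of an RNA-Seq count table, through the GENCODE v44 symbols of their Ensembl identifiers, and all 10 were found. They had been chosen with differences between LTED and parental cells already known, so their differences are given as a description, with no p-value. The table covered 27 libraries of human breast cancer cell lines, 15 from MM134 cells and 12 from SUM44 cells, with 3 wells for each of 9 groups.

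MM134 (MDA-MB-134VI) and SUM44 are cell lines derived from invasive lobular carcinoma, a breast cancer type that has usually lost E-cadherin and expresses the estrogen receptor. LTED (long-term estrogen-deprived) variants had been selected by the authors during months of culture in medium with charcoal-stripped serum, which lacks steroid hormones, and were kept in that medium. The MM134 variants were LTED-A, -B, -D and -E, and their parental group was MM134 parental. The SUM44 variants were LTED-A and LTED-B, and their parental group was SUM44F, a subline that the authors had derived from SUM44PE by culture in medium with standard serum. SUM44PE itself formed the remaining parental group. All parental cells, in MM134, SUM44F and SUM44PE alike, had been hormone-deprived for 3 days before collection. The variants arose as estrogen-independent clones, and the replicates of a group were wells of 1 culture, so the adjusted p-values behind the calls measure only the spread between these wells, which may be technical. In SUM44 LTED-A, sampling noise exceeded the difference between replicates 2 and 3, which were counted as 1 sample, which leaves n = 2 for that group and n = 3 for the others.

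MHC class II molecules are heterodimers of an alpha and a beta chain that present peptides from the endocytic route to CD4+ T cells. They are made constitutively by dendritic cells, B cells and macrophages, whereas many epithelial cells make them after exposure to interferon-gamma. The alpha and beta chains assemble in the endoplasmic reticulum with the invariant chain CD74, which fills the groove and steers the complex to endosomes, where HLA-DM exchanges the remnant of CD74 for peptide. Transcription of these genes is coordinated by CIITA, a coactivator that does not bind DNA itself but joins a complex of RFX proteins, CREB and NF-Y on the so-called X and Y boxes of the promoters. In breast epithelium the pathway is known mainly as a response to interferon-gamma.

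The promoters are shown because CIITA acts on class II promoters through these boxes. RefSeq promoter sequences on GRCh38.p14, from 250 bases before to 50 bases after a transcription start, could be matched for 8 of the 10 genes. They were searched on both strands for AG, any 2 bases, AC, any 2 bases and ATG, letters of the X box that were picked with these promoters in view, and for ATTGG, the core of the Y box. Both motifs can overlap, as in one RFX5 promoter, where an X match and a CCAAT share bases. The X letters were found in promoters of HLA-DRB1, HLA-DQB1, HLA-DMA, HLA-DMB and RFX5, and not in those of CD74, HLA-DPA1 and HLA-DPB1. They were in 2.57% of all 35116 promoters searched, a share that tests nothing, as the letters came from these promoters. Of 6 other class II genes with a promoter, only HLA-DRB5 had the X letters. The Y letters were found in 7 of the 8 genes, against 34.6% of all promoters. X letters followed by Y letters on the same strand, with 15 to 30 bases between them, were found in HLA-DRB1, HLA-DQB1 and HLA-DMA and in HLA-DRB5, another class II gene, and in 17 promoters (0.0484%) in all. In the stretches below, the capitals mark the X and Y letters, written 5′ to 3′ on the strand of the gene, and none overlaps an exon of GENCODE v44. Those of HLA-DQB1 and HLA-DMA lie within introns of longer annotated transcripts of the same gene, and that of HLA-DMB lies outside the HLA-DMB gene, within an intron of the annotated gene ENSG00000248993.
HLA-DRB1 (chr6:32589875-32589942, minus strand): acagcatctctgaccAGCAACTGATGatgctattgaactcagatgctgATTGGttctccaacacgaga
HLA-DRB5 (chr6:32530358-32530425, minus strand): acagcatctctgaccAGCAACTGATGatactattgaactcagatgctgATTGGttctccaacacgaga
HLA-DQB1 (chr6:32666726-32666793, minus strand): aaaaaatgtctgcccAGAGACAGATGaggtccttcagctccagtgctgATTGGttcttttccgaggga
HLA-DMA (chr6:32953157-32953225, minus strand): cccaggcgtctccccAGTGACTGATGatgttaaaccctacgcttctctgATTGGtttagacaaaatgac
HLA-DMB (chr6:32941031-32941131, minus strand): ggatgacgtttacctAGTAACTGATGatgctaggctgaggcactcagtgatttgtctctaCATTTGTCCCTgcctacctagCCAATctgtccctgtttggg

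The X and Y letters were separated by 22 bases in HLA-DRB1, HLA-DRB5 and HLA-DQB1 and by 23 bases in HLA-DMA. HLA-DRB1 and HLA-DRB5 shared 67 of the 68 bases shown, and HLA-DRB1 and HLA-DQB1 shared 44. In HLA-DMB the X letters were followed by a match on the opposite strand and by CCAAT, the Y letters read from the other strand. These are letters of the reference genome, not of the alleles in MM134 or SUM44, and a match shows neither binding nor use of the site.

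The libraries held 28583554 to 134882175 estimated counts (median 44018412). Levels are given in CPM, counts scaled to library size, with TMM factors over all groups. They can be compared between groups for 1 gene but not between genes of different length. The epithelial label fitted the markers in every group: 8 luminal markers, among them EPCAM, KRT8 and ESR1, summed to between 4391 and 8473 CPM. KRT8, KRT18 and KRT19 carried most of these sums, which do not track the other markers. In MM134 LTED-A, 3 of the 8 were increased and 2 decreased (10.5% and 9.82% of all genes), and ESR1 was as low as 148 CPM. CDH1 held 8.36 to 24.6 CPM over all libraries. Of 12 immune cell markers, 4 to 7 had at most 3 counts in each library of a group. CD3E, which marks T cells, was at 0 in 5 of the 9 groups, and PTPRC, the pan-leukocyte marker CD45, was at or below 0.423 CPM in all libraries but 1. The summed immune markers ranged from 4.61 to 70.7 CPM in MM134 parental cells and from 5.06 to 28.3 CPM in the MM134 LTED groups. ITGAX alone held 67.5 CPM of the highest sum, that of MM134 parental replicate 3, so these ranges mostly follow 1 gene. The sums ranged from 5.91 to 40.0 CPM in SUM44F, 4.94 to 27.3 CPM in SUM44 LTED-A and 4.55 to 5.81 CPM in SUM44 LTED-B, so the last lay below SUM44F. Of the SUM44F sums, ITGAX held 29.3, 28.2 and 1.78 CPM in replicates 1, 2 and 3.

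The library above that PTPRC level was SUM44F replicate 1, and it stood apart. It held 135 CPM of the collagen gene COL3A1, 39.0 CPM of DCN, 10.8 CPM of PDGFRB, 2.60 CPM of PTPRC and 1.82 CPM of the monocyte gene CD14. The other 2 SUM44F libraries held 0.703 and 0.468 CPM of COL3A1 and 0.332 and 0.423 CPM of PTPRC, and no library of another group exceeded 5.54 CPM of COL3A1. The same library held more of 8 of the 10 genes than both other SUM44F libraries, and for HLA-DRA, HLA-DRB1, HLA-DPA1, HLA-DPB1 and HLA-DQB1 its level was 1.99 to 2.73 times their mean. How far the stromal and immune transcripts account for those levels was not tested, so the SUM44 differences of the 10 genes are given with and without this library, and those of other genes where a call changes. Smaller amounts of COL3A1 were seen in MM134 parental replicate 3 (5.54 CPM) and MM134 LTED-D replicate 2 (5.22 CPM), against at most 0.224 CPM in the other MM134 libraries.

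In MM134, 9 of the 10 genes were higher in LTED-A, LTED-D and LTED-E than in parental cells, and 8 of them in LTED-B, by a median over the 10 genes of 4.62, 3.68, 3.23 and 1.87 log2 units, respectively. In SUM44 all 10 had negative log2 fold changes in both variants, with medians of -1.30 (LTED-A) and -2.45 (LTED-B), or -0.83 and -2.23 without SUM44F replicate 1. RFX5 was the single gene that was lower in all 6 variants. The median over all genes tested lay between -0.09 and 0.02 in these comparisons.

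**Figure D1:**
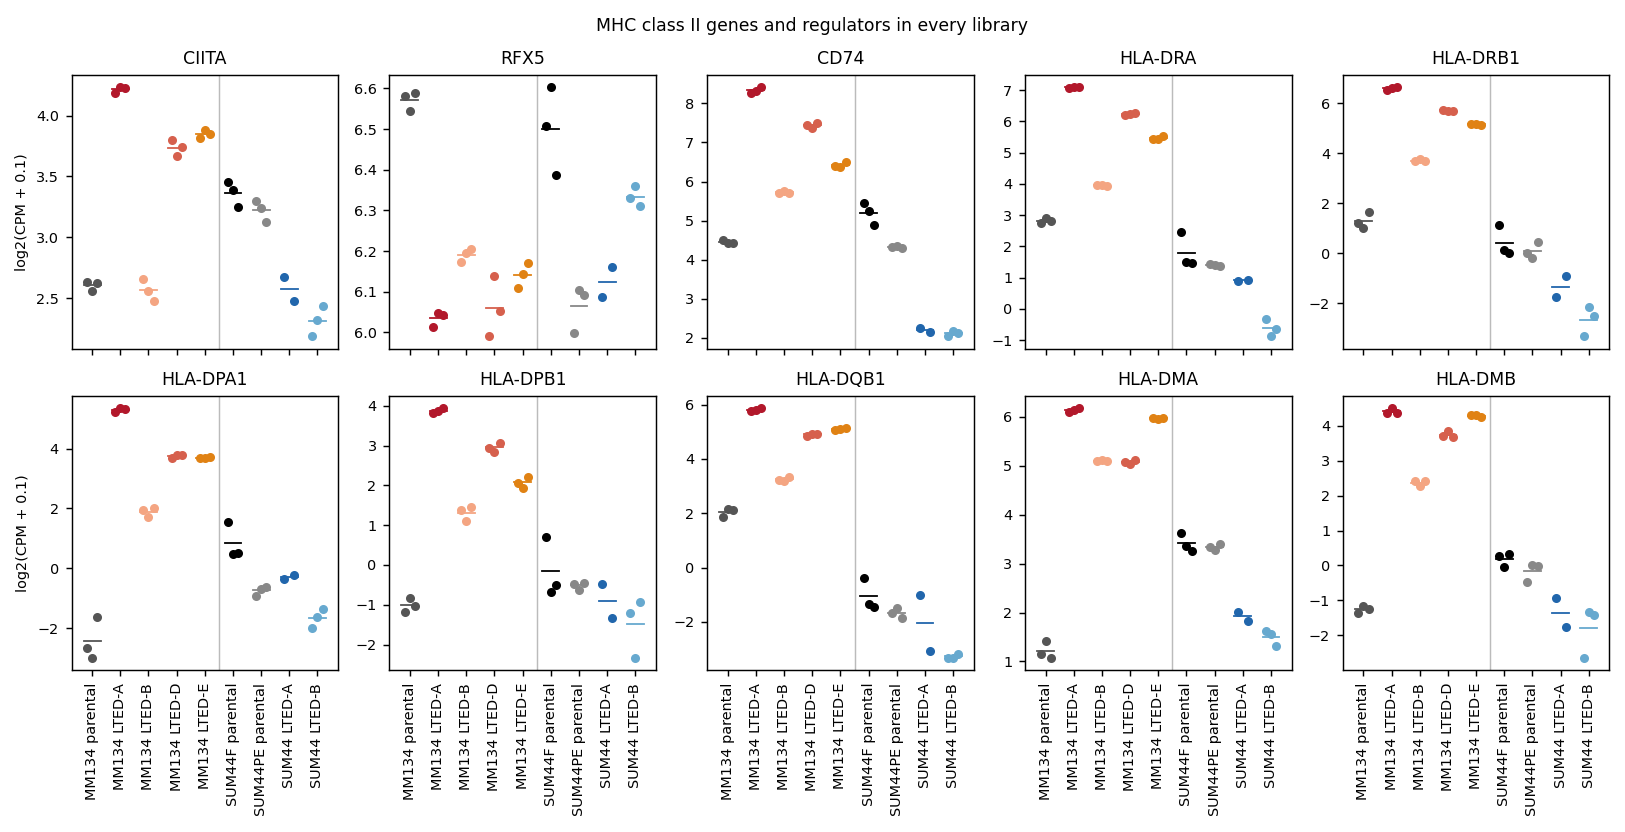
Level of each gene in every library, as log2(CPM + 0.1) on the vertical axis, with its own range in each panel, over the 9 groups on the horizontal axis. Points are samples (n = 3 per group, n = 2 for SUM44 LTED-A), short lines the mean of the log2 values, and the grey line separates MM134 from SUM44; apart from CIITA in LTED-B and RFX5, the MM134 LTED points lie above the MM134 parental points, and SUM44 LTED means lie below SUM44F means.

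CIITA (ENSG00000179583, chr16:10866222-10943021), the coactivator that sets class II transcription, was measured at 6.12, 5.80 and 6.06 CPM in the 3 MM134 parental libraries. LTED-A libraries held 18.1, 18.7 and 18.7 CPM, LTED-D libraries 13.8, 12.6 and 13.2 CPM, and LTED-E libraries 14.0, 14.6 and 14.3 CPM. LTED-B libraries held 6.22, 5.79 and 5.47 CPM and overlapped the parental libraries, whereas those of the other 3 variants lay entirely above them. The log2 fold change was 1.62 (SE 0.06) in LTED-A, 1.16 (SE 0.06) in LTED-D and 1.27 (SE 0.06) in LTED-E, and -0.03 (SE 0.06) in LTED-B. Leaving out LTED-B replicate 3 turned the last value to 0.01.

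In SUM44F parental cells CIITA stood at 10.8, 10.4 and 9.39 CPM, above MM134 parental cells. The SUM44 LTED-A samples held 6.30 and 5.47 CPM, the latter being the merged sample, and LTED-B libraries held 4.46, 4.89 and 5.32 CPM. Both variants lay below all SUM44F libraries, with log2 fold changes of -0.79 (SE 0.13) and -1.05 (SE 0.12). Without SUM44F replicate 1 these were -0.75 and -1.01. Genes within 1 Mb of CIITA shifted by a median of 0.22, 0.18, 0.55 and 0.26 log2 units in MM134 LTED-A, -B, -D and -E. Of these 35 genes, 5, 2, 10 and 4 met the thresholds for an increase (10.5%, 8.11%, 9.63% and 8.71% of all genes). Those for a decrease were met by 2, 1, 0 and 1 (9.82%, 7.75%, 7.95% and 10.3% of all genes). Among the 34 neighbours tested in SUM44, the median was 0.14 in LTED-A and 0.08 in LTED-B. Of these, 1 and 2 were increased (6.39% and 8.69% of all genes) and 3 and 2 decreased (7.28% and 8.57%). Ordered by mean level over the 9 groups, CIITA was highest in MM134 LTED-A and lowest in SUM44 LTED-B, and neighbouring groups did not differ beyond their ranges between SUM44F and SUM44PE and among MM134 parental, SUM44 LTED-A and MM134 LTED-B.

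RFX5 (ENSG00000143390, chr1:151340640-151347326), the subunit of the RFX complex that contacts the X box, varied far less. MM134 parental libraries held 95.6, 93.3 and 96.2 CPM. The 12 MM134 LTED libraries held 63.5 to 73.7 CPM and did not overlap the parental ones. The log2 fold changes were -0.54, -0.38, -0.50 and -0.42 for the A, B, D and E variants, with an SE of 0.03 each, under the 1.5-fold threshold in every case. In SUM44, RFX5 was at 90.8, 97.1 and 83.6 CPM in SUM44F, at 67.9 and 71.5 CPM in LTED-A and at 80.4, 82.0 and 79.3 CPM in LTED-B, which gave log2 fold changes of -0.38 (SE 0.08) and -0.17 (SE 0.07), or -0.37 and -0.17 without SUM44F replicate 1. RFX5 was thus lower in variants with more class II transcript and in variants with less.

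HLA-DRA (ENSG00000204287, chr6:32439878-32445046) encodes the nearly invariant alpha chain of HLA-DR. It was at 6.61, 7.37 and 6.97 CPM in MM134 parental cells and at 136, 137 and 137 CPM in LTED-A, a ratio of 19.6. LTED-D held 74.0, 76.2 and 76.7 CPM, LTED-E 43.7, 43.2 and 46.1 CPM and LTED-B 15.7, 15.4 and 15.1 CPM. The 5 groups did not overlap, in the order LTED-A, LTED-D, LTED-E, LTED-B and parental. The log2 fold changes were 4.28 (SE 0.04), 3.45 (SE 0.04), 2.68 (SE 0.04) and 1.14 (SE 0.05) in that order.

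In SUM44F, HLA-DRA was at 5.36, 2.73 and 2.65 CPM, the highest value being that of the library with stromal transcripts. LTED-A samples held 1.78 and 1.81 CPM, and LTED-B libraries held 0.693, 0.445 and 0.535 CPM. Both variants lay below all SUM44F libraries. The log2 fold change was -0.99 (SE 0.31) in LTED-A and -2.69 (SE 0.31) in LTED-B, and without SUM44F replicate 1 it was -0.58 and -2.29.

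HLA-DRB1 (ENSG00000196126, chr6:32577902-32589848), a polymorphic beta chain that pairs with HLA-DRA, followed the same order in MM134. Parental libraries held 2.20, 1.92 and 3.01 CPM and LTED-A libraries 92.8, 96.0 and 99.6 CPM. The values were 52.1, 51.8 and 51.9 CPM in LTED-D, 35.6, 35.5 and 35.0 CPM in LTED-E and 12.6, 13.3 and 12.7 CPM in LTED-B. The log2 fold changes were 5.35 (SE 0.07), 4.48 (SE 0.08), 3.92 (SE 0.08) and 2.46 (SE 0.09), larger than those of HLA-DRA in each variant. SUM44F libraries held 2.10, 0.996 and 0.902 CPM, LTED-A samples 0.198 and 0.430 CPM, and LTED-B libraries 0, 0.124 and 0.0764 CPM. The last group rests on 0, 5 and 7 counts. The log2 fold change was -1.96 (SE 0.54) in LTED-A and -4.16 (SE 0.60) in LTED-B, or -1.48 and -3.69 without SUM44F replicate 1.

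HLA-DPA1 (ENSG00000231389, chr6:33064569-33080775) and HLA-DPB1 (ENSG00000223865, chr6:33075990-33089696) encode the alpha and beta chains of HLA-DP. HLA-DPA1 was close to the detection limit in MM134 parental cells, with 0.0572, 0.0270 and 0.227 CPM from 2, 1 and 7 counts, the highest again in replicate 3. It was at 36.9, 40.4 and 39.4 CPM in LTED-A. The other variants held 12.8, 13.6 and 13.6 CPM in LTED-D, 12.8, 12.8 and 13.0 CPM in LTED-E, and 3.74, 3.19 and 3.93 CPM in LTED-B. These were the widest differences among the 10 genes, with log2 fold changes of 8.60, 7.07, 7.02 and 5.18. Because 10 parental counts stand behind them, the ratio of summed counts in LTED-A was 396 with a 95% exact interval of 215 to 825, which covers counting error only. LTED-D and LTED-E did not differ beyond their ranges for HLA-DPA1.

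HLA-DPB1 was at 0.343, 0.459 and 0.389 CPM in MM134 parental cells and reached 13.9 to 15.2 CPM in LTED-A, 7.07 to 8.34 CPM in LTED-D, 3.71 to 4.57 CPM in LTED-E and 2.05 to 2.64 CPM in LTED-B. Its log2 fold changes of 5.17 (SE 0.14), 4.27 (SE 0.14), 3.38 (SE 0.15) and 2.59 (SE 0.17) kept the order seen for HLA-DR. In SUM44F, HLA-DPA1 was at 2.80, 1.29 and 1.33 CPM and HLA-DPB1 at 1.54, 0.527 and 0.601 CPM. HLA-DPA1 was lower in every library of both variants, at 0.692 and 0.754 CPM in LTED-A and 0.151, 0.222 and 0.295 CPM in LTED-B, with log2 fold changes of -1.30 (SE 0.37) and -2.91 (SE 0.37), or -0.85 and -2.45 without SUM44F replicate 1. HLA-DPB1 overlapped SUM44F in LTED-A, at 0.618 and 0.298 CPM (log2 fold change -1.01, SE 0.59), and lay below it in LTED-B, at 0.331, 0.0989 and 0.426 CPM (-1.53, SE 0.54). Without SUM44F replicate 1 the HLA-DPB1 values shrank to -0.40 (SE 0.51) and -0.90 (SE 0.48).

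HLA-DQB1 (ENSG00000179344, chr6:32659467-32668383), the beta chain of HLA-DQ, stood at 3.55, 4.37 and 4.24 CPM in MM134 parental cells. It was at 54.2, 56.2 and 58.0 CPM in LTED-A. LTED-E held 33.6, 34.5 and 34.7 CPM, against 28.7, 30.4 and 30.1 CPM in LTED-D and 9.31, 8.97 and 10.1 CPM in LTED-B. Here LTED-E lay above LTED-D, the reverse of HLA-DR, with no overlap between them. The log2 fold changes were 3.78 (SE 0.06), 3.09 (SE 0.06), 2.89 (SE 0.06) and 1.22 (SE 0.07), respectively. In SUM44F it was low, at 0.673, 0.293 and 0.267 CPM, and in LTED-B it was below detection, with 0, 0 and 1 counts in the 3 libraries, so it was at least 4.55-fold lower than in SUM44F, or at least 3.10-fold lower without SUM44F replicate 1. The LTED-A samples disagreed, at 0.395 and 0.0175 CPM, and overlapped SUM44F, with a log2 fold change of -1.30 (SE 0.92), or -0.82 without that library.

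HLA-DMA (ENSG00000204257, chr6:32948613-32969094) and HLA-DMB (ENSG00000242574, chr6:32934629-32941028) encode the 2 chains of the peptide exchange factor HLA-DM. HLA-DMA was at 2.12, 2.59 and 2.01 CPM in MM134 parental cells and at 68.2, 70.6 and 72.0 CPM in LTED-A. It reached 63.0, 62.2 and 62.5 CPM in LTED-E, 34.2, 34.5 and 34.4 CPM in LTED-B and 33.6, 32.8 and 34.7 CPM in LTED-D. Unlike for the peptide-binding chains, LTED-B and LTED-D overlapped and LTED-E came near LTED-A. The log2 fold changes were 4.96 (LTED-A), 4.80 (LTED-E), 3.93 (LTED-B) and 3.92 (LTED-D), with an SE of 0.06 each. In LTED-B, the variant whose CIITA level overlapped that of parental cells, the mean HLA-DMA level was 15.3 times the parental mean and the mean HLA-DRA level 2.21 times.

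HLA-DMB went from 0.286, 0.351 and 0.324 CPM in MM134 parental cells to 20.5, 22.5 and 20.6 CPM in LTED-A. It was at 19.6, 19.7 and 18.9 CPM in LTED-E, 13.1, 14.2 and 12.8 CPM in LTED-D and 5.25, 4.77 and 5.27 CPM in LTED-B. The log2 fold changes were 6.03 (SE 0.10), 5.92 (SE 0.10), 5.38 (SE 0.11) and 3.98 (SE 0.12). HLA-DMB thus kept LTED-E above LTED-D, as HLA-DMA and HLA-DQB1 did. In SUM44F, HLA-DMA was at 12.2, 10.2 and 9.44 CPM, against 3.95 and 3.43 CPM in LTED-A and 2.98, 2.84 and 2.39 CPM in LTED-B. The log2 fold changes of -1.52 (SE 0.16) and -1.96 (SE 0.14) moved little without SUM44F replicate 1, to -1.42 and -1.85. HLA-DMB was at 1.11, 0.879 and 1.16 CPM in SUM44F and lay below that in both variants, by log2 fold changes of -1.89 (SE 0.47) and -2.22 (SE 0.42), or -1.87 and -2.18 without that library.

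CD74 (ENSG00000019582, chr5:150401637-150412969), the invariant chain, was at 22.4, 21.4 and 21.4 CPM in MM134 parental cells. It was at 306, 318 and 342 CPM in LTED-A. Its level was 176, 165 and 181 CPM in LTED-D, 84.2, 82.7 and 90.4 CPM in LTED-E and 52.2, 53.9 and 52.3 CPM in LTED-B. As for HLA-DRA, no 2 of these groups overlapped. The log2 fold changes were 3.88, 3.01, 1.99 and 1.28, with an SE of 0.05 each. In SUM44F it was at 43.9, 38.0 and 29.7 CPM, against 4.67 and 4.35 CPM in LTED-A and 4.01, 4.45 and 4.24 CPM in LTED-B. CD74 was about as low in one SUM44 variant as in the other, with log2 fold changes of -3.05 (SE 0.17) and -3.14 (SE 0.14). Without SUM44F replicate 1 they were -2.91 and -3.00.

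**Figure D2:**
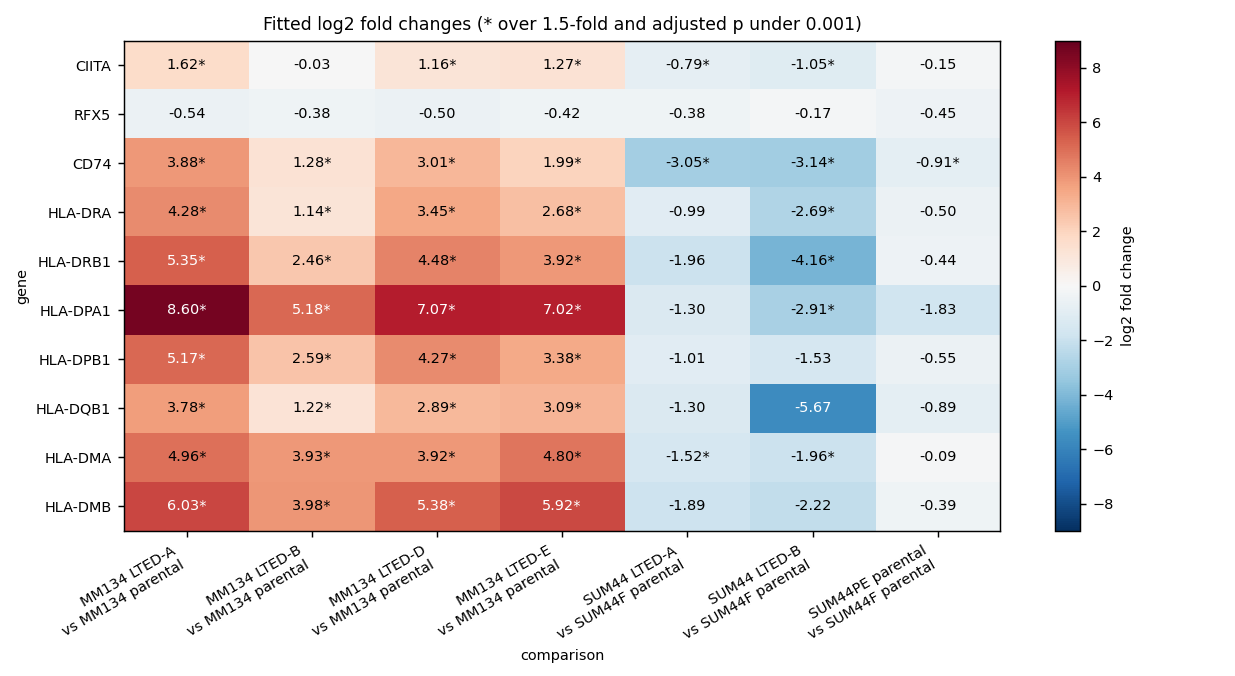
Fitted log2 fold change of each gene (rows) in the 7 comparisons (columns), printed in each cell and coloured from blue (lower) to red (higher), with an asterisk where the change exceeded 1.5-fold with an adjusted p under 0.001. In the 4 MM134 columns all but RFX5, and CIITA in LTED-B, are red, and in the 3 SUM44 columns all values are negative. The HLA-DQB1 value in SUM44 LTED-B is a fitted value against a group below detection and is no bound.

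**Figure D3:**
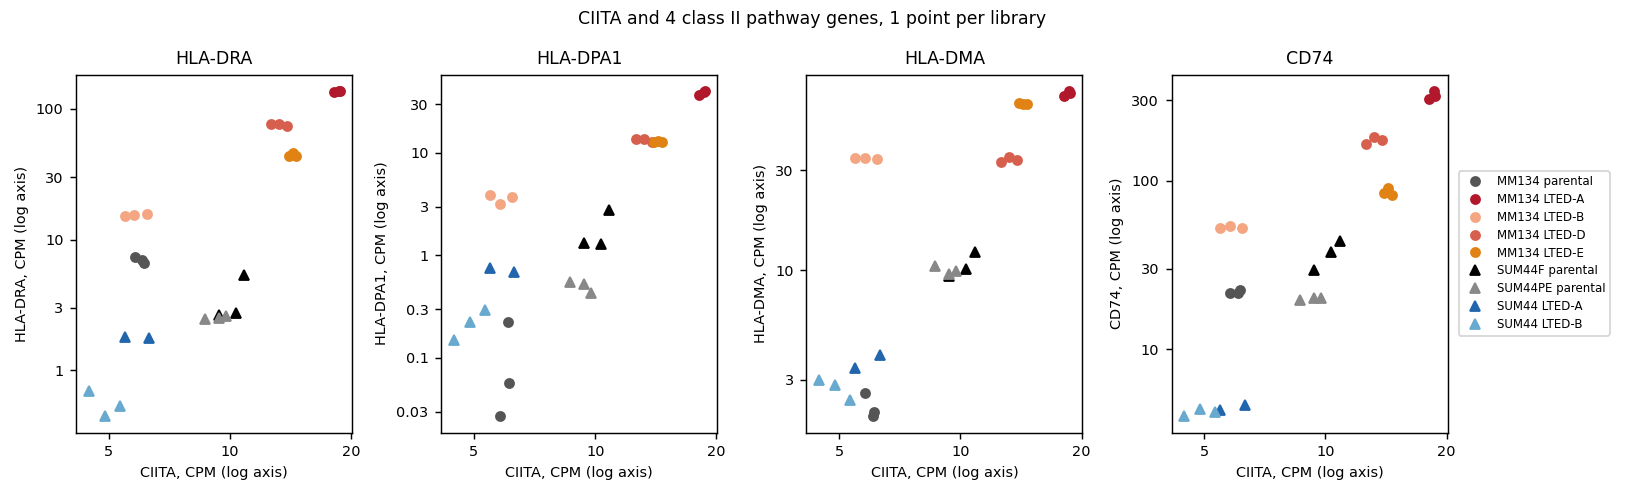
CIITA level (horizontal log axis, CPM) against HLA-DRA, HLA-DPA1, HLA-DMA and CD74 (vertical log axes, CPM), 1 point per sample, circles for MM134 and triangles for SUM44. MM134 LTED-B lies at the CIITA level of MM134 parental cells but above them on all 4 vertical axes, and SUM44 parental cells lie to the right of MM134 parental cells but below them for HLA-DRA.

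Counted by the thresholds of the study, a fold change above 1.5 and an adjusted p under 0.001 from edgeR's quasi-likelihood test, 9 of the 10 genes were increased in MM134 LTED-A, where 10.5% of the 26061 genes tested were. The counts were 8 in LTED-B (8.11% of all genes), 9 in LTED-D (9.63%) and 9 in LTED-E (8.71%), and in none of these was 1 of the 10 genes decreased (9.82%, 7.75%, 7.95% and 10.3% of all genes). In SUM44 LTED-A, 3 of the 10 genes were decreased, CIITA, CD74 and HLA-DMA, against 7.28% of the 26834 genes tested. In LTED-B, 6 were decreased, CIITA, CD74, HLA-DRA, HLA-DRB1, HLA-DPA1 and HLA-DMA, against 8.57% of all genes, and none of the 10 was increased in either variant (6.39% and 8.69% of all genes). The genes were chosen for differences of this kind, so nothing is read from these counts. All 10 passed the filter on low counts in every comparison. HLA-DPA1 in MM134, with 1 to 7 counts in the parental libraries, passed it through the LTED groups. In SUM44 LTED-B, HLA-DQB1 held 0 to 1 counts and HLA-DRB1 0 to 7, so these 2 genes passed it through the other SUM44 groups.

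Leaving out any 1 library left the MM134 counts at 9, 8, 9 and 9. In SUM44 LTED-A, leaving out any of the 3 SUM44F libraries or either sample of the variant left CIITA outside the thresholds, so that 2 genes were counted. With 1 sample of the variant left, its spread was assumed to be that of the other groups. For LTED-B the count was 5 without LTED-B replicate 3, when HLA-DRB1 was lost, and 6 otherwise. Without SUM44F replicate 1, 2 genes were decreased in LTED-A (6.38% of all genes) and 6 in LTED-B (7.65%), and none was increased (5.76% and 8.16%). Counted by libraries alone, 9 of the 10 genes lay entirely above the parental libraries in MM134 LTED-A, LTED-D and LTED-E (30%, 28.2% and 28.5% of all genes). The count was 8 in MM134 LTED-B (27.7%). In SUM44, 8 lay entirely below in LTED-A (28.1%) and 10 in LTED-B (31%), among them HLA-DQB1, which was below detection in LTED-B. RFX5 was the 1 gene that lay entirely below in MM134 LTED-A, -B, -D and -E (28.7%, 25.9%, 28.8% and 28.7% of all genes), and none lay above in SUM44 (24.8% and 28.8%). In these bulk samples, a larger or smaller share of cells that express a gene and a different amount of RNA per cell cannot be told apart.

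SUM44PE and SUM44F cells are the parental cultures of 1 line before and after that change of medium. The same SUM44F libraries served as the reference of the LTED comparisons, in which the genes were already known to be low. This comparison is therefore not independent of the choice of genes. Values are printed without p-values, and whether a gene passed the thresholds is given only as a description. CD74 was at 19.7 to 20.2 CPM in the 3 SUM44PE libraries against 43.9, 38.0 and 29.7 CPM in SUM44F, with no overlap. Its log2 fold change was -0.91 (SE 0.12), and without SUM44F replicate 1 -0.77 (SE 0.10). It was the single gene among the 10 past both thresholds, where 2.72% of the 27457 genes tested were decreased and 2.85% increased. Without SUM44F replicate 1 it was again 1 gene, against 2.19% of all genes decreased and 2.91% increased. By libraries alone, 5 of the 10 genes lay entirely below SUM44F (20.4% of all genes) and none above (19.6%).

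RFX5 was at 63.8, 68.7 and 68.1 CPM in SUM44PE, below each SUM44F library and by less than 1.5-fold (log2 fold change -0.45, SE 0.06, or -0.44 without SUM44F replicate 1). Its adjusted p was under 0.001 with all libraries and not without that one. HLA-DPA1 was at 0.434, 0.528 and 0.554 CPM in SUM44PE, also below each SUM44F library, with a log2 fold change of -1.83 (SE 0.32), or -1.37 (SE 0.24) without SUM44F replicate 1. It did not pass the thresholds in either case, and passed them without SUM44F replicate 2 (-2.02). CIITA was at 9.76, 9.37 and 8.64 CPM in SUM44PE and overlapped SUM44F (-0.15, SE 0.10, or -0.09 without SUM44F replicate 1). HLA-DRA had a log2 fold change of -0.50 (SE 0.24), which was -0.09 without SUM44F replicate 1. The signs of HLA-DRB1 (-0.44), HLA-DPB1 (-0.55) and HLA-DMA (-0.09) turned without that library, to 0.04, 0.07 and 0.03. HLA-DQB1 and HLA-DMB had values of -0.89 (SE 0.72) and -0.39 (SE 0.34), or -0.36 and -0.35 without it.

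**Figure D4:**
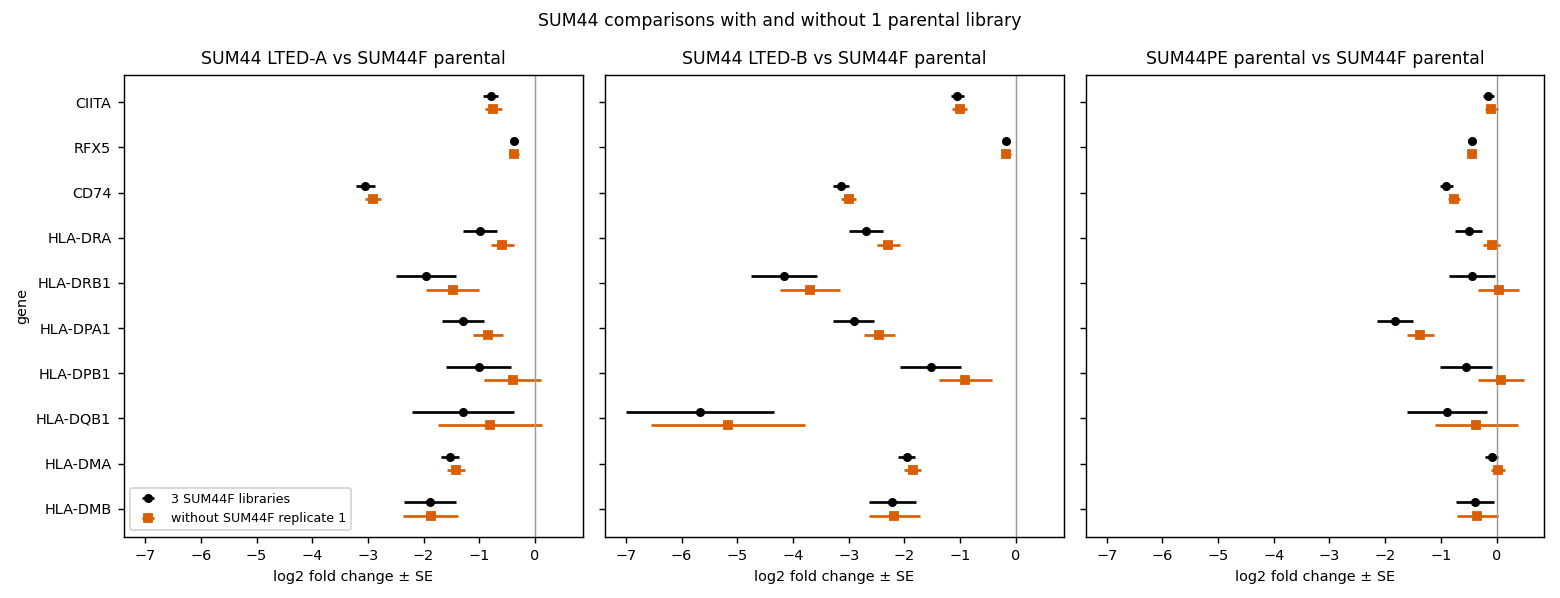
Log2 fold change (horizontal axis, bars are 1 SE) of the 10 genes in the 3 comparisons with SUM44F parental cells, with all 3 SUM44F libraries (black circles) and without SUM44F replicate 1 (orange squares). The squares lie to the right of the circles for HLA-DRA, HLA-DRB1, HLA-DPA1, HLA-DPB1 and HLA-DQB1, and nearly on them for CIITA, RFX5 and HLA-DMB.

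Lists of companion genes were counted by the same thresholds. In MM134 LTED-A, -B, -D and -E, 10.5%, 8.11%, 9.63% and 8.71% of all genes were increased and 9.82%, 7.75%, 7.95% and 10.3% decreased. In SUM44 LTED-A and LTED-B, 6.39% and 8.69% were increased and 7.28% and 8.57% decreased. In SUM44PE these shares were 2.85% and 2.72%. Nothing is read from list counts near these shares. Other class II genes, from a list of 8 of which 7 were tested in MM134 and 6 in SUM44, were counted next. In MM134, 6, 4, 5 and 5 of the 7 were increased in LTED-A, -B, -D and -E and none was decreased, with median log2 fold changes of 3.02, 1.30, 2.71 and 2.67. HLA-DRB5, a beta chain gene close in sequence to HLA-DRB1, went from 0.216, 0.286 and 0.389 CPM in parental cells to 31.8, 33.6 and 34.3 CPM in LTED-A. HLA-DQA1, the alpha chain that pairs with HLA-DQB1, went from 1.36, 1.37 and 1.73 CPM to 28.6, 29.0 and 29.4 CPM. HLA-DRB6 and HLA-DQA2 were also increased in all 4 variants. HLA-DPB2 was increased in LTED-A (2.12) and LTED-E (1.60), and HLA-DQB2 in LTED-A (1.85). HLA-DOA, a chain of the HLA-DM inhibitor HLA-DO, was increased in LTED-D (1.03). HLA-DRB6 and HLA-DPB2 are annotated as transcribed pseudogenes, so they count here as transcripts and not as class II chains. In SUM44 LTED-A none of the 6 was past the thresholds (median -0.90). In SUM44 LTED-B, HLA-DQA2, HLA-DQA1 and HLA-DRB5 were decreased, with log2 fold changes of -2.40 (SE 0.15), -1.54 (SE 0.26) and -4.46 (SE 0.77), and without SUM44F replicate 1 HLA-DQA2 alone passed the thresholds (-2.42), the values of the others being -1.37 and -4.28. HLA-DOA was at -0.11 there. HLA-DRB1 and HLA-DRB5 are near-identical, as are HLA-DQA1 and HLA-DQA2, and how the authors' estimation divided shared reads, or lost reads of alleles unlike the reference, was not tested.

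The DNA-binding partners of CIITA did not follow. Of RFXANK and RFXAP (the other RFX subunits), NFYA, NFYB and NFYC (the NF-Y subunits that bind the Y box) and CREB1, only RFXAP was past the thresholds in any of the 7 comparisons, in MM134 LTED-A (log2 fold change 0.78). Their median log2 fold change lay between -0.31 and 0.06 over the 7 comparisons. Of 5 coactivators of CIITA and its repressor PRDM1, KAT2B, an acetyltransferase that modifies histones and CIITA, was increased in all 4 MM134 variants. It was at 3.99, 4.70 and 5.38 CPM in MM134 parental cells, 19.3 CPM on average in LTED-A, 11.9 to 14.2 CPM in LTED-B, 15.2 to 16.8 CPM in LTED-D and 31.3 to 34.3 CPM in LTED-E. The log2 fold changes were 2.04, 1.52, 1.79 and 2.82 (SE 0.08 to 0.09), and in SUM44 no member of this list was past the thresholds. PRDM1 had values of -1.47, -2.09, -1.55 and -1.54 in MM134 LTED-A, -B, -D and -E, none past the thresholds. They rest on 2 to 20 counts per library. In SUM44F replicate 1 PRDM1 held 248 counts, against 9 and 15 in replicates 2 and 3.

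The route from interferon-gamma to CIITA runs through the receptor chains IFNGR1 and IFNGR2, the kinases JAK1 and JAK2, and transcription factors that include IRF1. IFNGR1, the ligand-binding chain, was at 24.1, 25.4 and 25.6 CPM in MM134 parental cells and was increased in all 4 variants, to 81.6 to 85.8 CPM in LTED-A, 37.0 to 39.1 CPM in LTED-B, 41.8 to 43.8 CPM in LTED-D and 44.5 to 45.7 CPM in LTED-E. In SUM44F it was at 224, 229 and 231 CPM and was decreased in both variants, to 29.0 and 36.2 CPM in LTED-A and 73.0, 73.7 and 74.9 CPM in LTED-B. IFNGR1 thus took the same directions as the class II genes, with log2 fold changes of 1.74, 0.60, 0.79 and 0.87 in MM134 and -2.80 and -1.63 in SUM44, the latter -2.80 and -1.63 also without SUM44F replicate 1. In SUM44PE it was lower than in SUM44F by a log2 fold change of -0.69 (SE 0.08), or -0.68 without SUM44F replicate 1.

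Over the 9 genes of this list, IFNGR1 was the 1 increased in each MM134 variant, 3, 2, 2 and 1 were decreased in LTED-A, -B, -D and -E, and 5 and 4 were decreased in SUM44 LTED-A and LTED-B with none increased. JAK1 was decreased in all 6 variants, with log2 fold changes from -1.13 to -0.66. IRF1 was decreased in MM134 LTED-A (-0.90) and LTED-B (-1.10) and in both SUM44 variants (-1.06 and -1.31), and JAK2 in MM134 LTED-D (-0.69) and SUM44 LTED-A (-0.82). SOCS1, which inhibits the JAK kinases, was decreased in MM134 LTED-A (-2.39) and in both SUM44 variants (-1.57 and -2.10). It missed the p threshold in SUM44 LTED-A without SUM44F replicate 1, with about the same value (-1.59), which left 4 genes decreased there. In MM134, then, none of these downstream genes was increased with IFNGR1, and in SUM44 those past the thresholds were decreased with it.

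Among 8 genes of the interferon response, 6 were increased in MM134 LTED-A, 3 in LTED-B, 2 in LTED-D and 1 in LTED-E, and none was decreased, with median log2 fold changes of 2.65, 0.65, 0.15 and -0.12. OAS1, which senses double-stranded RNA, was higher by 3.28 log2 units in LTED-A and by 1.99 in LTED-D, and 0.62 and 0.96, not past the thresholds, in LTED-B and LTED-E. IFI6 was increased in LTED-A, LTED-B and LTED-D (2.38, 0.89 and 0.68), GBP2 in LTED-A, LTED-B and LTED-E (3.09, 0.86 and 0.70), IFIT1 in LTED-A and LTED-B (1.98 and 0.69), and IFIT3 (3.03) and ISG15 (2.92) in LTED-A. In SUM44, OAS1, IFIT3, IFI6, GBP2 and IFIT1 were decreased in both variants, so that 5 of the 8 were decreased in LTED-A and, with GBP1, 6 in LTED-B, and without SUM44F replicate 1 the counts were the same. In SUM44PE, OAS1 (-0.75), IFIT1 (-1.11) and IFI6 were lower than in SUM44F, and IFIT1 no longer passed the thresholds without that library (-0.99). GBP1, an interferon-gamma-induced GTPase, had negative values in all 7 comparisons, from -3.10 to -0.50, past the thresholds in SUM44 LTED-B. The list is given as a description, since a similar one had been examined in these data before.

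In the endosomal route, IFI30, a thiol reductase that unfolds antigens for class II loading, was increased in all 4 MM134 variants, from 14.3, 14.8 and 15.3 CPM in parental cells to between 91.2 and 130 CPM. Its log2 fold changes were 3.07, 2.65, 2.87 and 2.74, and in SUM44 it was past the thresholds in no comparison. CTSS, the protease that trims the invariant chain, was past the thresholds in no MM134 variant and was decreased in SUM44 LTED-A (-1.96, SE 0.23) and LTED-B (-2.37, SE 0.20), from 4.20, 4.49 and 4.71 CPM to 1.04 and 1.23 CPM and to 0.602, 0.840 and 1.07 CPM. The cathepsin genes CTSD and CTSB were increased in all 4 MM134 variants, by 0.93 to 1.94 and by 0.68 to 1.11. MARCHF8, a ubiquitin ligase that removes class II molecules from the surface, was decreased in all 4, by -1.39 to -1.01. CTSL was increased in LTED-A (0.78) and LTED-D (1.06), LGMN in LTED-D (0.59), and CTSH was decreased in LTED-A, LTED-B and LTED-E (-1.58, -0.84 and -1.85). In SUM44, MARCHF1 (1.61) was increased and CTSD (-0.90), LGMN (-0.80) and MARCHF8 (-0.98) were decreased in LTED-A, and CTSH (0.71) and CTSB (1.27) were increased and SPPL2A (-0.68) and CTSD (-0.61) decreased in LTED-B. Over the 10 genes of this list, 4, 3, 5 and 3 were increased and 2, 2, 1 and 2 decreased in MM134 LTED-A, -B, -D and -E, and 1 and 2 were increased and 4 and 3 decreased in SUM44 LTED-A and LTED-B. Without SUM44F replicate 1, CTSB passed the thresholds for an increase in SUM44 LTED-A and CTSD no longer passed those for a decrease in LTED-B. In SUM44PE, CTSD (0.78), CTSH (1.24) and CTSL (1.20) were increased.

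**Figure D5:**
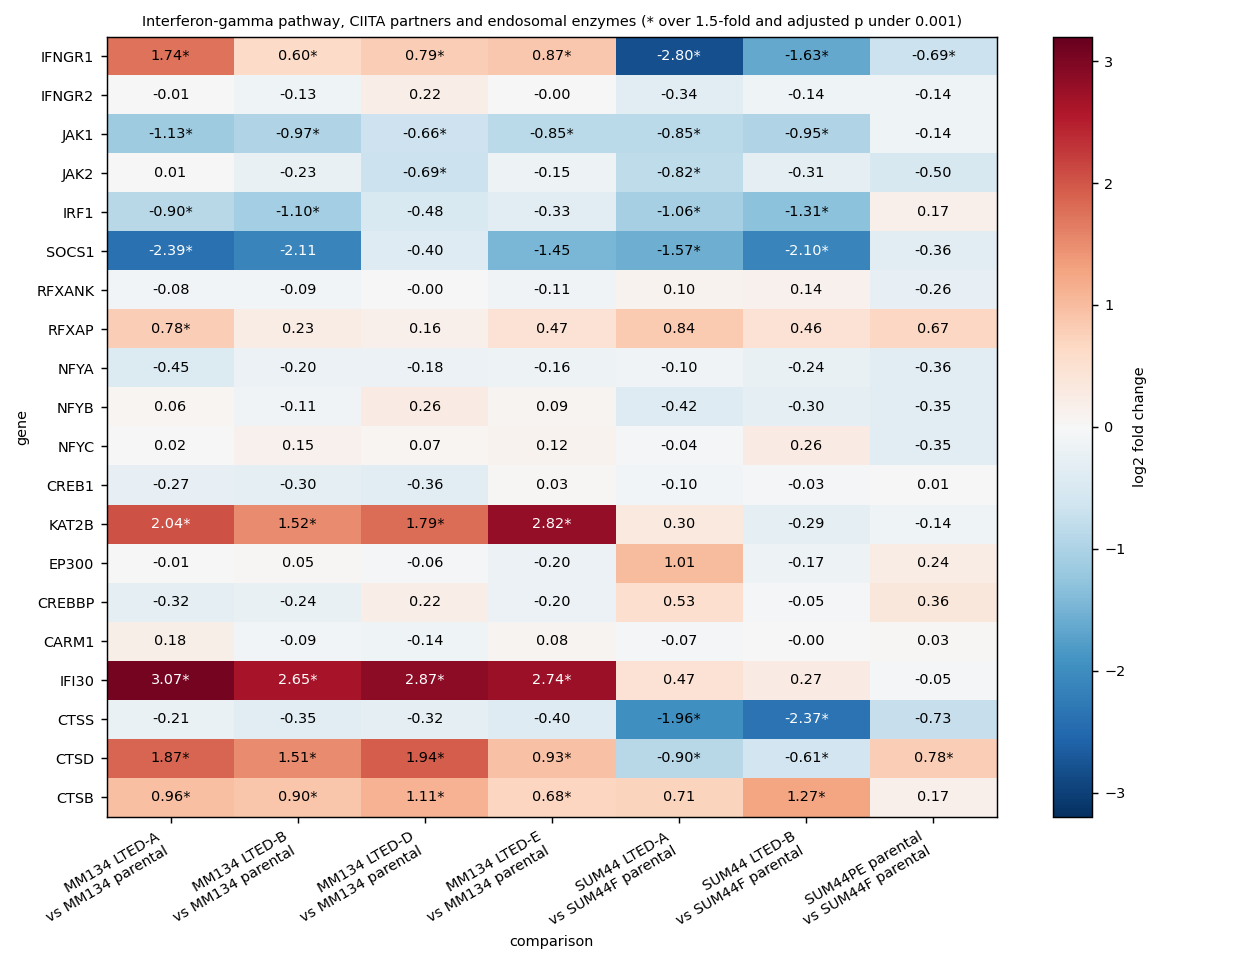
Fitted log2 fold change of genes of the interferon-gamma route (IFNGR1 to SOCS1), the DNA-binding partners and coactivators of CIITA (RFXANK to CARM1) and endosomal proteins (IFI30 to CTSB) in the 7 comparisons, printed in each cell and coloured from blue (lower) to red (higher). Asterisks mark changes above 1.5-fold with an adjusted p under 0.001; IFNGR1 is positive in the 4 MM134 columns and negative in the 3 SUM44 columns, whereas JAK1 is negative in all 7.

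CD74 also acts at the cell surface as a receptor for the cytokine MIF, together with CD44 and CXCR4. CD44 was decreased in all 4 MM134 variants, from 12.6, 14.2 and 16.0 CPM to at most 0.543 CPM in LTED-A, LTED-D and LTED-E and 2.02 to 2.53 CPM in LTED-B. CXCR4 was decreased in LTED-A, LTED-B and LTED-D (-4.12, -6.18 and -7.70) and had a value of -0.30 in LTED-E, which was not past the thresholds. In SUM44, CD44 was decreased and CXCR4 increased in both variants (-1.33 and -1.25, and 2.07 and 1.90), and MIF (1.12) and its relative DDT (0.82) were increased in LTED-A. In SUM44PE, CXCR4 (1.09), MIF (0.71) and DDT (0.59) were higher than in SUM44F, DDT not past the thresholds without SUM44F replicate 1 (0.65). CD44 was thus lower where CD74 was higher in MM134 and lower with it in SUM44, and CXCR4 was higher in SUM44 where CD74 was lower. Of the costimulation and checkpoint genes, CD80 and CD86 were too low to be tested. CD274 was decreased in MM134 LTED-A (-1.46) and LTED-E (-1.41), and ICOSLG was increased in MM134 LTED-E (0.63) and SUM44 LTED-A (1.43), the latter not past the thresholds without SUM44F replicate 1 (1.42).

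Class I genes and the peptide loading machinery, which presents peptides of cytosolic origin, showed smaller and mixed differences. Of 12 genes, 4, 2, 6 and 5 were increased and 1, 2, 1 and 3 decreased in MM134 LTED-A, -B, -D and -E, and in SUM44 3 were decreased in LTED-A and 6 in LTED-B, with none increased. NLRC5, which plays for class I the part that CIITA plays for class II, was decreased in all 4 MM134 variants, by -1.67 to -0.93. TAP1, a peptide transporter subunit encoded within the class II region, was increased in all 4, by 0.63 to 1.32. The class I heavy chains differed from each other in MM134. HLA-E was increased in LTED-A (1.10), LTED-D (0.73) and LTED-E (1.38), whereas HLA-B was decreased in LTED-B and LTED-E (-0.84 and -0.97) and HLA-C in LTED-E (-0.97). B2M, their common light chain, was increased in LTED-A (1.17) and LTED-E (0.82), TAP2 in LTED-A (0.63), LTED-D (0.83) and LTED-E (0.85), and PSMB8 in LTED-B (0.76), LTED-D (1.85) and LTED-E (0.77). PSMB9 (1.08) and TAPBP (0.62) were increased in LTED-D. In SUM44, B2M (-0.93 and -1.32) and HLA-E (-0.87 and -1.06) were decreased in both variants and HLA-B (-0.83), HLA-F (-1.99) and TAPBP (-0.71) in LTED-B, with the same counts of 3 and 6 without SUM44F replicate 1. In SUM44PE, HLA-E was decreased (-0.59), and not without that library (-0.50).

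Genes within 1 Mb of the class II region, leaving out class II genes, showed no median shift of like size. TAP1, TAP2, PSMB8, PSMB9 and TAPBP were among these neighbours. Among the 118 neighbours tested in MM134 the median was -0.08, 0.02, -0.08 and -0.07, and among the 117 tested in SUM44 it was 0.08 and -0.22. In MM134, 12, 9, 13 and 13 neighbours were increased (10.5%, 8.11%, 9.63% and 8.71% of all genes). Decreased were 9, 5, 7 and 11 (9.82%, 7.75%, 7.95% and 10.3%). In SUM44 LTED-A and LTED-B, 9 and 5 were increased (6.39% and 8.69%) and 5 and 9 decreased (7.28% and 8.57%). Of the immune markers, LYZ, which encodes lysozyme, was increased in all 4 MM134 variants, from 0.172, 0.297 and 0.356 CPM to 9.23, 9.75 and 10.3 CPM in LTED-A. The other immune markers tested in MM134, CSF1R, ITGAX and CD163, were past the thresholds in none of these comparisons, and PTPRC was at 0.0696 to 0.365 CPM in the MM134 libraries. Of the 5 stromal and endothelial markers tested in MM134, 1, 0, 2 and 1 were increased and 2, 1, 1 and 2 decreased in LTED-A, -B, -D and -E. PECAM1, which encodes the adhesion molecule CD31, was increased in LTED-A (2.21), LTED-D (0.78) and LTED-E (1.46) and had a value of 0.25 in LTED-B. VWF, the other endothelial marker, was decreased in LTED-A (-1.97) and LTED-E (-2.09) and increased in LTED-D (1.95), and COL1A1 was decreased in all 4 variants (-1.59 to -0.75). In SUM44, 1 of 6 markers was decreased in LTED-A, PECAM1 (-3.70), and 2 in LTED-B, PECAM1 (-2.90) and VWF (-3.49). The count was 3 in each without SUM44F replicate 1, with COL3A1 and VWF added in LTED-A and COL3A1 in LTED-B. PECAM1 was also lower in SUM44PE (-1.68). The part of these genes in the class II differences was not tested.

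By likeness over the 9 group means of log2(CPM + 1), among 10599 genes whose mean reached 1 CPM in some group and whose range reached 1 log2 unit, HLA-DRB1 (r = 0.993), HLA-DQB1 (0.981) and HLA-DQA1 (0.973) were among the 4 genes most like HLA-DRA. HLA-DMA was in place 588 (0.866) and CIITA in place 1428 (0.803). The genes outside the pathway most like HLA-DRA were ENSG00000270157 (0.980), ENSG00000276216 (0.971), TAFA5 (0.965), ACVR1C (0.962) and CNTN1 (0.960). Among those most like CIITA were NYNRIN (0.955), GRN (0.952), C1orf116 (0.921) and ELMO1 (0.904), and the pathway gene most like it was HLA-DQA1 (0.878, place 12). The 9 points fall into 2 cell lines and share parental origin, so these values describe the pattern over groups only. The places of genes outside the pathway depend on the pseudocount: with 0.1 in place of 1, 2 of the 5 genes for HLA-DRA and 3 of the 5 for CIITA stayed among the 5 most alike, and HLA-DPA1 went from place 52 to place 459 for HLA-DRA.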

How the data were processed

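RNA from 27 libraries of MM134 and SUM44 cells, 3 per group in 9 groups, was sequenced by the authors as stranded total RNA. They estimated transcripts with Salmon (version 0.6.0) against hg38 and Ensembl release 82, and deposited 1 table of estimated counts per gene, not normalized. Groups were taken from the sample labels, and no column was left unmapped.

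Estimated counts were rounded to whole numbers. Replicates 2 and 3 of SUM44 LTED-A, whose chi-square per degree of freedom was 0.312 against 2.35 to 58.1 for the other 26 replicate pairs, were averaged, leaving 26 samples. Depth ran from 28583554 to 134882175 counts, and at most 3 counts in each library of a group was taken as below detection. Intervals and floors cover counting error only. Levels are CPM with TMM scaling. Differences were fitted with edgeR 4.0.16 (quasi-likelihood F-test, filterByExpr, Benjamini-Hochberg adjustment over all genes tested, R 4.3.3) within each line. A gene was called increased or decreased above 1.5-fold with an adjusted p under 0.001, the thresholds of the study. The test was checked on simulated counts with 200 changed genes. Other steps used Python 3.11.15, pandas 2.3.3, numpy 2.4.6 and matplotlib 3.10.9.

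The genes and lists were chosen with earlier results of these data known. All 10 genes are named, companion genes of the pathway lists are counted per list and named where called, cell type markers are named in part, and for CIITA and HLA-DRA the 5 most alike genes over the group means are named. Some results that the rule covers are not reported here. Gene names and positions come from GENCODE v44, which held 56434 of the 60619 identifiers. Alternatives were RLE and total-count scaling, other filters and thresholds, DESeq2 1.42.0, thinned counts, a replicate block, separate replicates, the 2 groups compared alone and leaving out each library.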

Additional observations from a re-analysis of the deposited data

Results flagged for a closer look

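For 6 of the 10 genes, the fitted changes were positive in all 4 MM134 LTED variants and negative in both SUM44 LTED variants, with every library on its side of the parental libraries. The mean log2 fold change over the MM134 variants exceeded that over the SUM44 variants by 5.63 for CD74 (2.54 against -3.09), 4.73 for HLA-DRA (2.89 against -1.84) and 7.12 for HLA-DRB1 (4.05 against -3.06). It exceeded it by 9.07 for HLA-DPA1 (6.97 against -2.10), 6.15 for HLA-DMA (4.40 against -1.74) and 7.38 for HLA-DMB (5.33 against -2.05). The SUM44 means include SUM44F replicate 1. Without it the LTED-A and LTED-B values were -0.58 and -2.29 for HLA-DRA, -1.48 and -3.69 for HLA-DRB1 and -0.85 and -2.45 for HLA-DPA1. Those of CD74, HLA-DMA and HLA-DMB moved less, and all stayed negative with no overlap. How many of all genes meet the same conditions was not counted, and the difference between the lines was not tested. In the single comparisons, 27.7% to 30% of all genes lay entirely above the parental libraries in MM134. In SUM44 LTED-A and LTED-B, 28.1% and 31% lay entirely below. Nothing is read from the count of 6 genes. The variants of a line share its parental libraries, and the genes were chosen with these differences known.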

How the results depend on the processing

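Over all alternatives, 8 to 9 of the 10 genes were increased in MM134 LTED-A, LTED-D and LTED-E and 7 to 8 in LTED-B, and leaving out any 1 library left these counts at 9, 9, 9 and 8. With no fold minimum, 1 gene, RFX5, was decreased in each MM134 variant in place of 0. In SUM44 LTED-A, 5 genes were decreased with no filter on low counts and 7 at an adjusted p under 0.05, in place of 3. Over all genes, 2472 were decreased with no filter in place of 1954, and the numbers at changed thresholds were not counted. Looser thresholds can raise the numbers over all genes too. Nothing is therefore read from the counts of the 10 genes at changed settings, here or in the other comparisons. Leaving out any SUM44F library gave 2. CIITA there lost its call whichever library was left out (-0.85 to -0.69), with RLE scaling (-0.76), thinned counts (-0.83), the 2 groups alone (-0.78) and a replicate block (-0.79). In SUM44 LTED-B the count was 5 to 6 with 1 library left out and 4 to 9 over all alternatives. Over all genes, 2926 were decreased there with no filter in place of 2299. In SUM44PE against SUM44F, 2 genes in place of 1 were decreased with no filter, DESeq2, thinned counts or all replicates separate. The count was also 2 with no fold minimum or an adjusted p under 0.05, and 0 with a fold minimum of 2. Over all genes, 956, 816, 714 and 815 were decreased with the first 4 of these settings, in place of 748. Leaving out 1 library gave 1 to 2. Leaving out 1 library turned signs for CIITA in MM134 LTED-B (-0.0881 to 0.00937, the latter without LTED-B replicate 3) and, in SUM44PE, for HLA-DRB1 (-0.66 to 0.0398), HLA-DPB1 (-0.81 to 0.0732) and HLA-DMA (-0.132 to 0.0282), each positive without SUM44F replicate 1. Same-numbered replicates were not treated as paired (correlations of -0.113 to 0.0805 in MM134 and -0.121 to 0.182 in SUM44, 3 of 18 over 0.1). These 3 were the pairs among replicate 3 of SUM44F, LTED-A and LTED-B (0.157, 0.182 and 0.134), and what they share was not tested. With a replicate block, 9, 8, 9 and 9 genes were increased in MM134 LTED-A, -B, -D and -E. In SUM44, 2 and 6 were decreased in LTED-A and LTED-B, and 1 in SUM44PE. In SUM44, counts of HLA-DRB1, HLA-DPB1, HLA-DQB1 and HLA-DMB limit what can be detected.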
